A study of Mus musculus with 10 samples.

Results

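Cultures of the same cells were compared 120 h after estradiol (E2) was first removed: one had E2 given back after 40 h and kept for the other 80 h, and the other never had it back. The comparison rests on 4 of the 10 libraries of the series, chosen by their withdrawal time: 2 of the group with 40 h of withdrawal and 80 h of add-back (the 40 h group) and 2 of the group with 120 h of withdrawal (the 120 h group). The cells are ER-Hoxa9-Lys-GFP cells, cultured mouse myeloid progenitors of the C57BL/6 strain, in which the homeobox factor Hoxa9 is joined to the E2-binding domain of the estrogen receptor and a GFP reporter marks lysozyme expression. Every group carried both constructs and grew in serum-containing RPMI with medium conditioned with stem cell factor, the ligand of Kit. The other 6 libraries, 2 each of cells always kept in E2 (untreated), of 24 h withdrawal with 96 h of add-back and of 72 h withdrawal with 48 h of add-back, are given for their levels. The titles give the withdrawal times, and the treatment labels give the add-back times. The labels do not say whether the 2 libraries of a group came from separate cultures. The p-values therefore reflect only the spread within groups, shared over all 10 libraries, and that spread may be technical. RNA of the Hoxa9 fusion and of the cells' own Hoxa9 gene cannot be told apart here.

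As background, Hoxa9 bound by E2 through the fused receptor domain holds such progenitors in a dividing, immature state, and loss of E2 lets them mature into granulocytes and macrophages. Neutrophil maturation runs in an order of granule types: primary (azurophil) granules with myeloperoxidase and serine proteases are made first, secondary (specific) granules with lactoferrin and cathelicidin later, and tertiary granules with gelatinase and the calgranulins of the cytosol near the end. Cells stop dividing and shrink their nucleolus, the site of ribosome assembly, as they mature. In RNA from whole cultures, fewer cells of a type and less RNA per cell cannot be told apart.

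Levels are RPKM, reads on a transcript scaled to its length and to the library's reads, and differences are log2 fold changes on log2(RPKM + 1), 40 h minus 120 h, so a negative value means less RNA after the 40 h withdrawal with add-back. That scale understates the change of low genes. Of 26227 genes in the files, 13004 had RPKM of at least 1 in 2 or more of the 10 libraries and were tested with limma, and a gene was called at a Benjamini-Hochberg adjusted p under 0.05. In the 40 h libraries 6812 genes were higher than in the 120 h libraries (52.4% of those tested) and 3684 were lower (28.3%), and 2508 were not called. The 2 groups did not overlap in 88.23% of the genes tested, so separation of the libraries alone says little about a gene. With a change of at least 2-fold added, 3241 genes were higher (24.9%) and 1935 were lower (14.9%). A list's count of calls is read against 52.4% and 28.3%. Where a count is of changes of at least 2-fold, it is read against 24.9% and 14.9%. The larger changes lay on the lower side: among called genes, 114 were lower and 10 were higher by 5 or more on the log2 scale.

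The split between higher and lower calls depended on the scaling. The median log2 fold change of all genes tested was 0.34. After median-of-ratios scaling it was -0.007, with 5020 genes higher and 5188 lower, so that 49.2% of calls were higher in place of 64.9%. Differences near 0.34 therefore do not have a fixed direction, while the groups of genes below are described by changes that are mostly many times larger. Read denominators were 173620000 to 204390000 over the 10 libraries, so a single read on a transcript of 2 kb gave 0.00245 to 0.00288 RPKM. The 120 h libraries differed more between themselves than any other pair, with a median absolute log2 difference per gene of 0.248 against 0.0915 for the 40 h pair. The untreated, 24 h and 72 h pairs were at 0.0602, 0.074 and 0.119. Each SE rests on a spread shared over all groups, so it can understate the spread of the 120 h pair. The nuclear RNAs Malat1 and Neat1, read as signs of RNA quality, also differed within the 120 h pair. Malat1 was at 5.91 and 35.95 RPKM in that pair and 3.01 and 4.33 in the 40 h pair. Neat1 was at 2.42 and 11.7 and 1.17 and 1.46, and their part in the results was not tested. On the first principal component of the 10 libraries, which held 83.7% of the variance, the 40 h libraries were at -39.9 and -38.8, the untreated ones at -43.7 and -43.6, the 24 h libraries between them at -42.8 and -43.4, and the 120 h libraries at 110.4 and 133.3. The 72 h libraries were at -0.5 and 9 on that component. On the second component (12.3%) the 40 h libraries, at 3.5 and 0.1, lay apart from the untreated ones at -21.3 and -20.8, and the 120 h libraries were at -7.5 and -18.5. The 24 h libraries, at -16.2 and -11.8, lay between untreated and 40 h there, and the 72 h libraries were furthest out at 45 and 47.5.

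**Figure D1:**
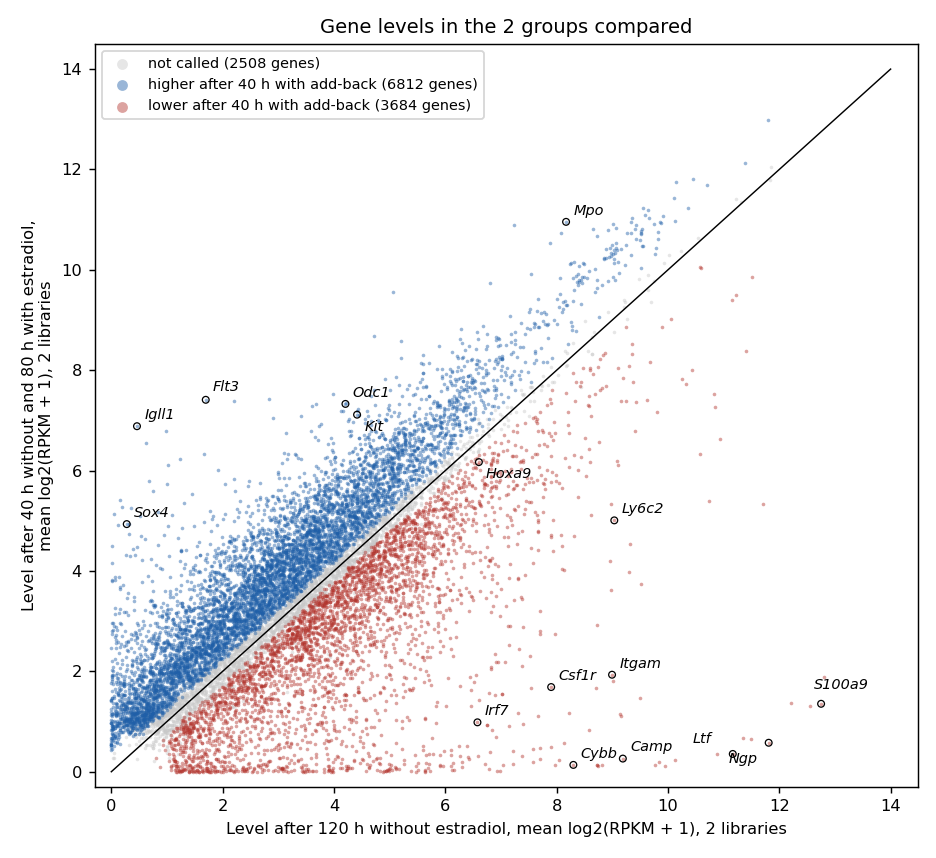
Each point is 1 of 13004 genes, with the mean log2(RPKM + 1) of the 2 libraries at 120 h without estradiol on the x axis and of the 2 libraries at 40 h without and 80 h with estradiol on the y axis; colour gives the call and the line marks equal levels. S100a9, Ltf, Ngp, Camp and Cybb lie along the bottom edge at high 120 h levels, and Igll1, Flt3 and Sox4 lie near the left edge.

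The construct and progenitor genes were examined first. Hoxa9 RNA was 66.4 and 75.8 RPKM in the 40 h libraries and 94.5 and 97.9 in the 120 h libraries, a small difference (log2 change -0.43 ± 0.16 SE, adjusted p = 0.032). That call was lost with array weights, with no filter on low values, without 40 h replicate 1 (adjusted p = 0.165) and without 120 h replicate 2 (adjusted p = 0.074). Esr1, the estrogen receptor gene, was at 7.91 and 8.87 RPKM against 10.9 and 11.9 (log2 change -0.40 ± 0.15 SE, adjusted p = 0.033), and its call was lost with no filter, with array weights, without either 40 h library (adjusted p = 0.157 and 0.0545) and without 120 h replicate 2 (adjusted p = 0.104). Meis1, the partner homeobox factor of Hoxa9, was at 7.34 and 9.18 RPKM in the 40 h libraries and 0.706 and 1.1 in the 120 h libraries (log2 change 2.28 ± 0.13 SE, adjusted p = 1.2e-06). Kit, the stem cell factor receptor of progenitors, was at 126 and 150.5 against 26.7 and 15.4 RPKM (log2 change 2.70 ± 0.21 SE, adjusted p = 7.3e-06). Both 40 h libraries lay close below the untreated ones, which held 152 and 158 RPKM of Kit. Lyz2, the lysozyme gene whose promoter the GFP reporter follows, was low in all 10 libraries, at 0.22 and 0.336 RPKM after 40 h and 2.68 and 4.29 after 120 h (log2 change -1.79 ± 0.17 SE, adjusted p = 1.9e-05). Its reads may be shared with its relative Lyz1.

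Most secondary granule genes were far lower after 40 h with add-back than at 120 h. In both 40 h libraries 16 of the 29 genes in the files were under 1 RPKM, 3 of them too low in every group to be tested. Of 30 listed genes 26 were tested, 25 were lower in the 40 h libraries and 1 was not called, with a median log2 fold change of -5.35 against 0.34 for all genes tested. Ltf, the iron-binding protein lactoferrin, was at 0.253 and 0.304 RPKM in the 40 h libraries and 2188 and 2405 in the 120 h libraries (log2 change -10.81 ± 0.26 SE, adjusted p = 2.1e-08). Ngp, the neutrophilic granule protein, was at 0.487 and 0.497 against 3846 and 3347 (log2 change -11.23 ± 0.24 SE, adjusted p = 1.6e-08). In both genes all 8 of the libraries other than 120 h were far below the 120 h pair, with 72 h at 16.6 and 33.9 for Ltf and 22.7 and 41.4 for Ngp. Camp, the antimicrobial peptide cathelicidin, was at 0.246 and 0.154 against 668 and 509 (log2 change -8.93 ± 0.18 SE, adjusted p = 1.5e-08). Chil3, a chitinase-like lectin, was at 3.22 and 2.24 against 8692 and 5850 (log2 change -10.91 ± 0.26 SE, adjusted p = 2.1e-08). The 120 h values of Camp and Chil3 were each spread further than those of Ltf. The member with no call was Serpinb1a, an inhibitor of neutrophil proteases, at 352 and 315 RPKM after 40 h and 485 and 297 after 120 h. It was called lower without 120 h replicate 2 (log2 fold change -0.54 in place of -0.19, adjusted p = 0.0021) and under median-of-ratios scaling (-0.63).

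The promoters of Ngp and Ltf are shown since these genes had the largest change of the list among those with a match to C/EBP letters upstream of the start. C/EBP factors are regulators of granule genes. Each sequence is the 250 bases before the RefSeq start on GRCm38.p6, on the gene's strand, with matches in capitals; both genes lie on the + strand of chromosome 9. The letters searched on both strands were TTGCGCAA, TTGCNNAA and TTNCGCAA, which overlap each other.
Ngp, chr9:110419558-110419807: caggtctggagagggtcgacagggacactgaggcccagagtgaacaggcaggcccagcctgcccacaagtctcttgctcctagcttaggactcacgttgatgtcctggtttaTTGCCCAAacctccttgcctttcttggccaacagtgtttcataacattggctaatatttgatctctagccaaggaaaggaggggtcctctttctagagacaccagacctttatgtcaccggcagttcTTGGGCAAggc
Ltf, chr9:111019042-111019291: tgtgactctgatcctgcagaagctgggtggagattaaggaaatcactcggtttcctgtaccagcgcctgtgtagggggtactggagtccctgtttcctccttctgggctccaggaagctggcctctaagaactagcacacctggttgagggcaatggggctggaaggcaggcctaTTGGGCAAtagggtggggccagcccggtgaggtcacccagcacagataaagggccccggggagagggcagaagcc
Over windows of 250 bases before to 50 after the start, 6 of the 22 promoters found for 21 of the 26 tested genes held such letters (27.3%), against 10.8% of all 32851 promoters in the table and 8.71% of those of the genes tested. For PU.1 letters (GAGGAAGT or AGGAAGTG, which overlap each other) the count was 5 of 22 (22.7%) against 5.66% and 6.5%. The primary granule list, whose genes were called in both directions, had similar shares, with 5 of 21 promoters for the first letters (23.8%) and 6 of 21 for PU.1 (28.6%). A match is a description of the sequence and not evidence of binding.

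Late neutrophil genes were lower too. Of 41 listed genes of tertiary granules and mature neutrophils 39 were tested, 37 were lower in the 40 h libraries, 1 was higher and 1 was not called, with a median of -4.21. S100a9 and S100a8, the calgranulins that make up much of the cytosolic protein of neutrophils, held the largest change of the named genes and one nearly as large. S100a9 was at 1.44 and 1.68 RPKM in the 40 h libraries and 6761 and 7027 in the 120 h libraries (log2 change -11.40 ± 0.28 SE, adjusted p = 2.2e-08). S100a8 was at 1.47 and 1.49 against 6385 and 5695 (log2 change -11.25 ± 0.25 SE, adjusted p = 1.9e-08), and the 2 genes lie on chromosome 3. Retnlg, a resistin-like secreted protein of neutrophils, was at 0.131 and 0.17 against 759 and 1100 (log2 change -9.63 ± 0.23 SE, adjusted p = 2.1e-08). The stefin A genes Stfa1, Stfa2, Stfa2l1, Stfa3 and BC100530, cysteine protease inhibitors on chromosome 16, had log2 fold changes from -10.84 to -9.82, but their sequences are nearly identical and single members are uncertain. Of the receptor Cxcr2, named after its values were seen, the 40 h libraries held 0.26 and 0.311 RPKM against 46.3 and 56.8, and the untreated libraries held 0.508 and 0.497. The member that was higher was Ifitm1, a membrane protein with antiviral activity also made by progenitors, at 162 and 153 against 85.7 and 123 RPKM (log2 change 0.61 ± 0.18 SE, adjusted p = 0.013); this call was lost under median-of-ratios scaling, quantile normalization and array weights and without 40 h replicate 1 (adjusted p = 0.064).

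**Figure D2:**
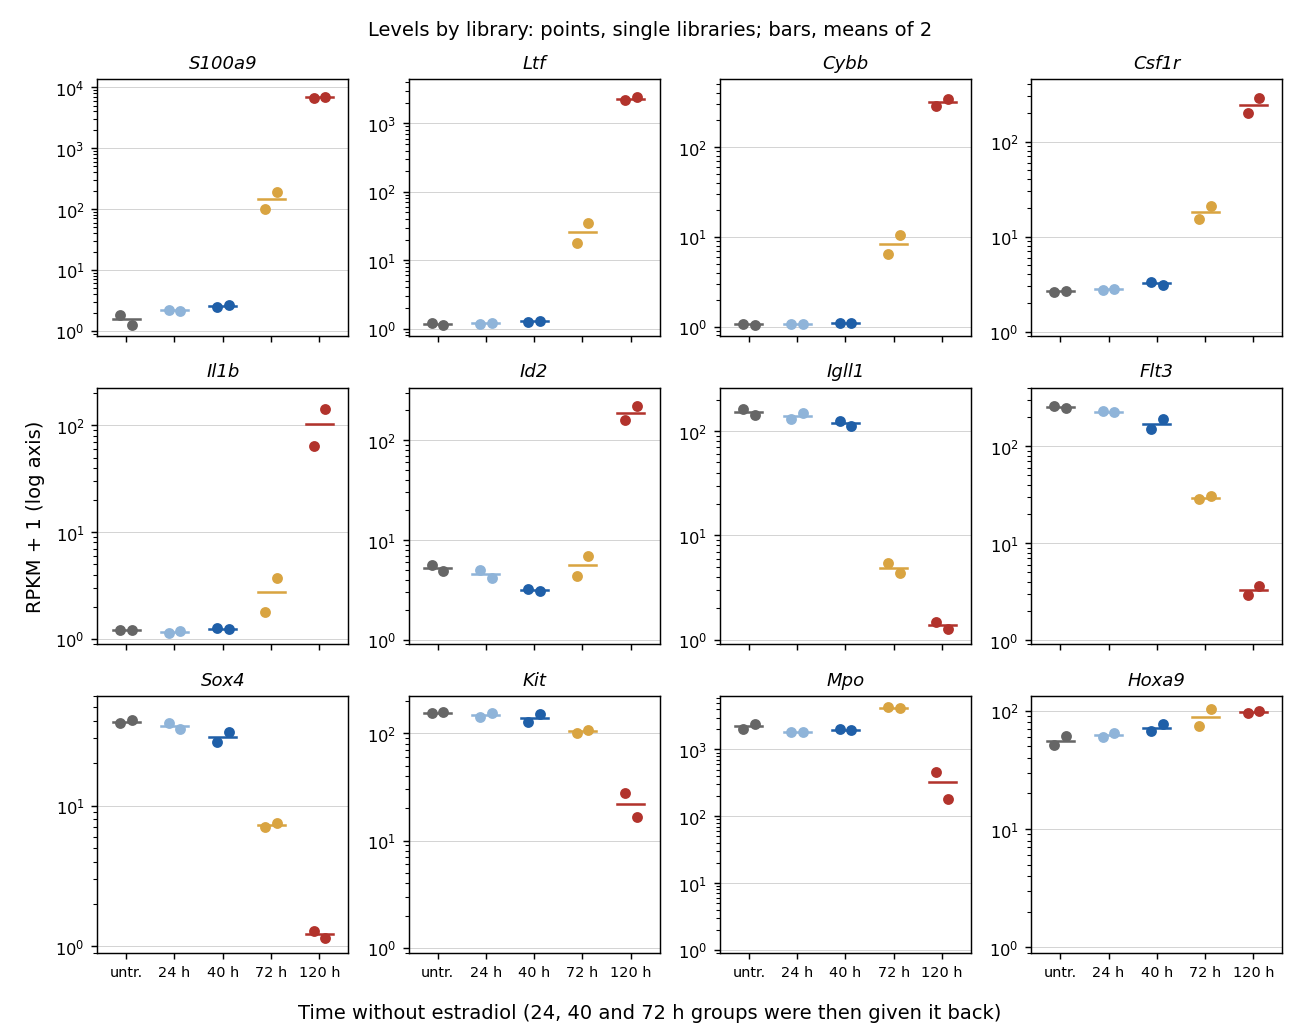
RPKM + 1 of 12 genes on log axes for the 5 groups, with 1 point per library and a bar at the mean of 2. In S100a9, Ltf, Cybb, Csf1r and Il1b the 40 h points sit with the untreated and 24 h points at the bottom, and in Igll1, Flt3 and Sox4 they sit with them at the top.

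The primary granule list did not move as a group. It is wider than granule proteins, since it also holds the lectin Clec12a and the membrane protein Ms4a3, both called lower. Of the myeloperoxidase and serine protease genes described below, Mpo and Ctsg were higher and Prtn3 and Elane were not called. Of 19 tested 8 were higher in the 40 h libraries, 7 were lower and 4 were not called, with a median of 0.33 that changed sign under median-of-ratios scaling (-0.11), quantile normalization (-0.25), with no filter on low values (-0.01) and without 120 h replicate 2 (-0.14). Mpo, myeloperoxidase, was at 2031 and 1941 RPKM after 40 h and 463 and 178 after 120 h (log2 change 2.79 ± 0.38 SE, adjusted p = 1.9e-04), and was highest in the 72 h libraries at 4334 and 4137. Ctsg, the protease cathepsin G, was at 2009 and 1809 against 231 and 95.7 (log2 change 3.67 ± 0.35 SE, adjusted p = 2.0e-05). Prtn3, proteinase 3, was not called, at 562 and 456 against 556 and 235 RPKM (log2 change 0.48 ± 0.34 SE, adjusted p = 0.22), and without 120 h replicate 1 it was called higher in the 40 h libraries (log2 fold change 1.10, adjusted p = 0.0001). Elane, neutrophil elastase, named after its values were seen, had 40 h values inside the spread of the 120 h pair (44.6 and 37.5 against 94.05 and 32.2 RPKM). It was at 1.68 and 3.19 in the untreated libraries and 262 and 294 in the 72 h libraries. Cst7, an inhibitor of cysteine proteases, was higher after 40 h (153 and 148 against 44.6 and 20.8 RPKM, log2 change 2.26 ± 0.28 SE, adjusted p = 9.7e-05). Fcnb, the pattern-binding lectin ficolin B, was lower, at 7.1 and 6.02 against 535 and 336 RPKM (log2 change -5.82 ± 0.24 SE, adjusted p = 2.5e-07). Clec12a, an inhibitory C-type lectin, was also lower, at 14.9 and 11.9 against 167 and 147 (log2 change -3.46 ± 0.11 SE, adjusted p = 7.3e-08).

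The machinery of phagocytosis and killing was lower after 40 h with add-back. All 8 tested genes of the NADPH oxidase, which makes superoxide, were lower (median -2.15), and so were 29 of 32 genes of phagocyte adhesion and Fc receptors (1 higher, median -3.34), 26 of 27 of pattern recognition (none higher, median -2.43) and 28 of 30 of the lysosome (2 higher, median -1.33). Cybb, the catalytic subunit of the oxidase, was at 0.093 and 0.105 RPKM in the 40 h libraries and 289.6 and 341 in the 120 h libraries (log2 change -8.16 ± 0.20 SE, adjusted p = 2.1e-08). Ncf1, a cytosolic partner of Cybb with a smaller difference, was at 69.9 and 66.2 against 519.9 and 578 RPKM (log2 change -2.99 ± 0.09 SE, adjusted p = 4.4e-08), so its 40 h level was well above the bottom of the range. Itgam, the integrin chain CD11b, was at 2.73 and 2.91 against 445 and 583 (log2 change -7.06 ± 0.21 SE, adjusted p = 5.0e-08). Tlr2, a receptor for bacterial lipoproteins, was at 1.21 and 1.31 against 142 and 176 (log2 change -6.13 ± 0.14 SE, adjusted p = 1.9e-08). Clec7a, the beta-glucan receptor dectin-1, was at 0.813 and 0.732 against 99.9 and 130.3 (log2 change -6.02 ± 0.14 SE, adjusted p = 2.1e-08). Among lysosomal genes Ctsb, a cysteine protease, was at 33.95 and 33.2 against 419.6 and 363 RPKM (log2 change -3.50 ± 0.09 SE, adjusted p = 2.8e-08). Glb1, a beta-galactosidase, was higher, at 41.2 and 43.8 against 24.9 and 19.2 (log2 change 0.92 ± 0.12 SE, adjusted p = 1.5e-04). Gaa, the acid alpha-glucosidase, was higher too, a call lost under median-of-ratios scaling. The adhesion gene that was higher was Pecam1, an endothelial and leukocyte adhesion molecule, at 58.8 and 68.5 against 35.2 and 23.3 RPKM (log2 change 1.12 ± 0.19 SE, adjusted p = 5.9e-04).

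Monocyte and macrophage genes were lower as well. Of 49 listed genes 40 were tested, 38 were lower in the 40 h libraries, 1 was higher and 1 was not called, with a median of -4.16. Csf1r, the receptor for macrophage colony-stimulating factor, was at 2.31 and 2.13 RPKM after 40 h and 199 and 285 after 120 h (log2 change -6.21 ± 0.19 SE, adjusted p = 5.4e-08). Ctss, cathepsin S of the antigen-processing pathway, was at 2.27 and 2.73 against 439.5 and 598 (log2 change -7.20 ± 0.26 SE, adjusted p = 1.3e-07). Gpnmb, a membrane glycoprotein of macrophages, was at 0.216 and 0.129 against 292 and 237 (log2 change -7.82 ± 0.17 SE, adjusted p = 1.6e-08). Ccr2, the chemokine receptor that brings monocytes out of the marrow, went the other way, at 64.1 and 74.8 against 31.6 and 38.6 RPKM (log2 change 0.97 ± 0.15 SE, adjusted p = 3.8e-04), and it was at 113 and 111 in the untreated libraries. F13a1, a clotting factor subunit of monocytes, was not called (272 and 265 against 299 and 278 RPKM). Some defining macrophage markers were under the filter in every group compared: Mertk was at 0.013 to 0.208 RPKM and Mrc1 at 0.078 to 0.775 over the 4 libraries. Summed over the 48 listed genes in the files, the level was 658.9 and 667.7 RPKM in the 40 h libraries, 570.3 and 614.9 in the untreated and 6717 and 7447 in the 120 h libraries.

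Receptors for chemoattractants and colony-stimulating factors were lower in 21 of 25 tested cases (median -3.31). Fpr1 and Fpr2 are receptors for formylated bacterial peptides. Fpr1 was at 0 and 0.025 RPKM after 40 h and 97.7 and 149.9 after 120 h (log2 change -6.91 ± 0.20 SE, adjusted p = 4.8e-08). Fpr2 was at 0.01 and 0.019 against 101 and 157 (log2 change -6.97 ± 0.20 SE, adjusted p = 4.1e-08). Both were thus close to 0 in the 40 h libraries. The 4 genes that were higher were Kit, Ccr2, the FLT3 ligand receptor Flt3 and Il3ra, the alpha chain of the interleukin-3 receptor, which was at 6.21 and 6.69 against 4.17 and 3.3 RPKM (log2 change 0.66 ± 0.12 SE, adjusted p = 9.6e-04). Of 28 tested cytokines and chemokines 26 were lower, 1 was higher and 1 was not called (median -2.81). Il1b, the inflammatory cytokine interleukin-1 beta, was at 0.248 and 0.221 RPKM in the 40 h libraries and 63.7 and 142 in the 120 h libraries (log2 change -6.28 ± 0.39 SE, adjusted p = 2.0e-06). Ccl6, a chemokine of myeloid cells, was at 0.32 and 0.185 against 132 and 209.8 (log2 change -7.06 ± 0.31 SE, adjusted p = 3.3e-07). The cytokine that was higher was Il6, at 3.54 and 5.35 against 1.17 and 1.51 RPKM (log2 change 1.20 ± 0.20 SE, adjusted p = 5.5e-04). Ccl9, another myeloid chemokine, was not called, with 194 and 184 RPKM after 40 h inside the 178 and 203 of 120 h, and was called lower under median-of-ratios scaling (log2 fold change -0.45).

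Myeloid transcription factors were lower in 37 of 42 tested cases, higher in 3 and not called in 2, with a median of -2.25. Id2, an inhibitor of helix-loop-helix factors, was at 2.25 and 2.08 RPKM in the 40 h libraries and 157 and 217 in the 120 h libraries (log2 change -5.88 ± 0.23 SE, adjusted p = 1.7e-07), and both 40 h values were below the 4.68 and 3.94 of the untreated libraries. Fos, a subunit of AP-1, was at 4.11 and 5.51 against 106 and 186 (log2 change -4.62 ± 0.36 SE, adjusted p = 7.1e-06). Klf6, a zinc finger factor, was at 2.13 and 2.39 against 69.4 and 82.6 (log2 change -4.56 ± 0.14 SE, adjusted p = 5.1e-08). Cebpe, which drives secondary granule genes, and Spi1, which encodes PU.1, were both named after their values were seen. Cebpe was at 17.2 and 11.6 RPKM after 40 h, 132 and 97.96 after 120 h and 6.8 and 7.6 in the untreated libraries (log2 change -2.92 ± 0.19 SE, adjusted p = 2.6e-06). Spi1 was at 43.3 and 38.1 against 185 and 175 (log2 change -2.12 ± 0.08 SE, adjusted p = 1.9e-07). Cebpa and Gfi1, factors of the granulocyte progenitor stage, were higher: Cebpa was at 48.1 and 46.2 against 17.9 and 13.2 RPKM (log2 change 1.55 ± 0.13 SE, adjusted p = 8.8e-06), and Gfi1 at 57.99 and 67.04 against 25.1 and 16.7 (log2 change 1.56 ± 0.18 SE, adjusted p = 7.1e-05). Vdr, the vitamin D receptor, was the third (0.692 and 1.06 against 0.287 and 0.174 RPKM).

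Interferon-stimulated genes, which encode antiviral proteins, were lower in 34 of 35 tested cases and higher in none (median -3.35). Irf7, the factor that amplifies interferon transcription, was at 0.918 and 1.04 RPKM in the 40 h libraries and 73.5 and 122 in the 120 h libraries (log2 change -5.59 ± 0.31 SE, adjusted p = 1.2e-06). Both 40 h values were also below the 2.34 and 2.08 of the untreated libraries. Ifit3, an antiviral tetratricopeptide protein, was at 0.062 and 0.106 against 47.2 and 73.5 RPKM (log2 change -5.79 ± 0.25 SE, adjusted p = 2.9e-07). Oas3, a sensor of double-stranded RNA, was at 0.191 and 0.321 against 45.9 and 76.5 (log2 change -5.59 ± 0.29 SE, adjusted p = 8.4e-07). The summed level of the 36 listed genes was 108.9 and 113.3 RPKM after 40 h, 143.5 and 142 in the untreated libraries and 1007 and 1504 after 120 h, so the 40 h pair was the lowest of the 3 groups. Gbp7, a guanylate-binding protein, was not called (2.03 and 2.39 against 2.44 and 6.24 RPKM), and was called lower without 120 h replicate 1 (log2 fold change -1.18 in place of -0.64), with the replicate number as a block (adjusted p = 0.0385), under quantile normalization, and under median-of-ratios scaling.

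The promoters of Ifit3 and Oas3 hold the letters GAAANNGAA, a core of the interferon-stimulated response element, shown in capitals within the 250 bases before the start (RefSeq, GRCm38.p6, gene's strand). Ifit3 lies on the + strand of chromosome 19 and Oas3 on the - strand of chromosome 5. The capitals of Oas3 are 2 overlapping matches.
Ifit3, chr19:34583279-34583528: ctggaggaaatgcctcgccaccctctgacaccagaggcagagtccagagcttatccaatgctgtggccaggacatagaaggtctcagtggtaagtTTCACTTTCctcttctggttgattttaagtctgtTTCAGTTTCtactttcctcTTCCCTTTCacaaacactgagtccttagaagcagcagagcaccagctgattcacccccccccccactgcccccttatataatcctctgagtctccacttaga
Oas3, chr5:120777660-120777909: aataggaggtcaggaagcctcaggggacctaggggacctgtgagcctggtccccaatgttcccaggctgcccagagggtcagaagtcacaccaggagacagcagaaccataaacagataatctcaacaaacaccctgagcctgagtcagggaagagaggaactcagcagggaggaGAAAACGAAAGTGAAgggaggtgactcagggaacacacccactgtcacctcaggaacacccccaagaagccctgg
On both strands and over the 300-base windows, 18 of 30 promoters of 26 matched genes of the list held these letters (60%, against 8.56% of all promoters and 7.45% of those of the genes tested). These letters and the E2F letters below were chosen after the expression values were seen.

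Progenitor genes were higher after 40 h with add-back in 23 of 35 tested cases, lower in 9 and not called in 3 (median 1.39). Flt3, a receptor tyrosine kinase of early progenitors, was at 149.5 and 191 RPKM in the 40 h libraries and 1.88 and 2.64 in the 120 h libraries (log2 change 5.71 ± 0.14 SE, adjusted p = 2.2e-08). Sox4, a high-mobility-group transcription factor of progenitors, was at 27.1 and 32.3 against 0.279 and 0.148 (log2 change 4.66 ± 0.11 SE, adjusted p = 1.9e-08). Angpt1, the ligand of the Tie2 receptor, was at 33.2 and 43.04 against 0.141 and 0.13 (log2 change 5.10 ± 0.13 SE, adjusted p = 2.5e-08). Each of these 3 genes was somewhat below its untreated level after 40 h, with 257 and 250.1 RPKM for Flt3, 37.5 and 39.2 for Sox4 and 50.1 and 54.3 for Angpt1. Cd34, a stem and progenitor sialomucin named after its values were seen, was at 743 and 768 against 37.6 and 27.5 RPKM (log2 change 4.51 ± 0.15 SE, adjusted p = 7.0e-08). All 4 genes were high in the 40 h libraries and low in both 120 h libraries. Muc13, a membrane mucin, was at 66.3 and 81.9 against 1.72 and 1.05 (log2 change 4.98 ± 0.18 SE, adjusted p = 1.3e-07). The members that were lower were led by Tgm2, tissue transglutaminase, at 1.88 and 1.93 against 125 and 112 RPKM (log2 change -5.36 ± 0.13 SE, adjusted p = 2.3e-08). Prom1, which encodes CD133, was at 0.257 and 0.201 against 12.9 and 10.8 (log2 change -3.38 ± 0.11 SE, adjusted p = 8.7e-08). Mef2c and Runx1, transcription factors used by both progenitors and maturing myeloid cells, were lower too, with log2 fold changes of -2.58 and -1.15.

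Lymphoid genes were divided, in shares near those of all genes tested (52.4% higher and 28.3% lower). Of 26 listed genes 15 were tested, 9 were higher in the 40 h libraries, 4 were lower and 2 were not called (median 1.03, 0.06 with no filter on low values and 2.94 with a pseudocount of 0.1). Igll1, a surrogate light chain of the pre-B receptor, had the largest positive fold change of the named genes. It was at 124 and 110.3 RPKM in the 40 h libraries against 0.49 and 0.272 in the 120 h libraries (log2 change 6.42 ± 0.14 SE, adjusted p = 1.9e-08). Its untreated mean was 151.9 RPKM, above both 40 h libraries. Ebf1, a B lineage factor, was at 14.3 and 20.02 against 0.01 and 0.007 (log2 change 4.15 ± 0.14 SE, adjusted p = 7.9e-08). Rag2, a subunit of the V(D)J recombinase, was at 20.4 and 23.1 against 0.003 and 0.012 (log2 change 4.50 ± 0.08 SE, adjusted p = 1.5e-08). Cd3e, a marker of committed T cells, was listed at 0 in all 4 libraries. Summed over the 26 genes the level was 234.9 and 233.3 RPKM after 40 h, 140 and 140.6 after 120 h and 342.1 and 313.2 in the untreated libraries. The members that were lower were Blnk, Il7r, Ighm and Notch1. Of these Blnk, a signalling adaptor, was at 0.266 and 0.475 against 9.46 and 11.4 RPKM (log2 change -3.06 ± 0.12 SE, adjusted p = 2.4e-07).

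Other genes among the 10 with the highest fold changes have varied functions. Mzb1, a chaperone of immunoglobulin assembly, was at 108 and 112 RPKM against 1.47 and 0.566 (log2 change 5.82 ± 0.19 SE, adjusted p = 6.8e-08). Cnn3, an actin-binding calponin, was at 89.9 and 94.4 against 0.851 and 0.293 (log2 change 5.91 ± 0.15 SE, adjusted p = 2.2e-08). Ctla2a, a cysteine protease inhibitor, was at 38.98 and 44.95 against 0.176 and 0.065 (log2 change 5.26 ± 0.11 SE, adjusted p = 1.6e-08). Nrgn, a calmodulin-binding protein, was at 171 and 160.1 against 6.59 and 1.77 (log2 change 5.18 ± 0.39 SE, adjusted p = 5.7e-06). Serpinf1, Aebp1 and Emid1, which encode secreted or matrix proteins, had log2 fold changes of 5.10, 5.09 and 5.08.

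Genes of ribosome assembly and growth were higher after 40 h with add-back than at 120 h, and most had a 40 h mean above the untreated mean. Of 38 tested genes 37 were higher than at 120 h, 36 of them by at least 2-fold, and 1 was lower (median 2.23). Odc1, the rate-limiting enzyme of polyamine synthesis, was at 161 and 158 RPKM in the 40 h libraries and 24.3 and 12.5 in the 120 h libraries (log2 change 3.12 ± 0.24 SE, adjusted p = 6.3e-06). Srm, the next enzyme of that pathway, was at 154 and 136 against 24.8 and 11.6 (log2 change 3.02 ± 0.28 SE, adjusted p = 1.7e-05). Gnl3, the nucleolar GTPase nucleostemin, was at 77.8 and 77.8 against 10.6 and 7.53 (log2 change 2.99 ± 0.15 SE, adjusted p = 5.8e-07). Myc, a driver of these genes named after its values were seen, was at 186 and 199.8 RPKM after 40 h, 42.4 and 22.6 after 120 h and 187 and 189 in the untreated libraries (log2 change 2.60 ± 0.23 SE, adjusted p = 1.5e-05). Summed over the list, the level was 4129 and 3967 RPKM after 40 h, above the 3321 and 3379 of the untreated and the 934.1 and 614.9 of the 120 h libraries. The 24 h sums were 3466 and 3668 RPKM. The 72 h sums, 4058 and 3863, were close to those of 40 h, so this height was not particular to the 40 h group. The 120 h pair differed by more than the 40 h pair. The member that was lower was Bysl, a ribosome assembly factor, at 13.4 and 12.6 against 17.7 and 15.1 RPKM (log2 change -0.31 ± 0.09 SE, adjusted p = 0.015). Its call was lost with the 2 groups alone and with array weights. It was also lost without 120 h replicate 1 (log2 fold change -0.20) and without 40 h replicate 2 (-0.27).

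Nop2, an rRNA methyltransferase, is shown as the member with the largest change among those with an E-box (CACGTG, the letters bound by Myc and Max; its own reverse complement) in the 250 bases before the start. It was at 44.2 and 42.8 RPKM after 40 h and 11.5 and 10.3 after 120 h (log2 change 1.91 ± 0.09 SE, adjusted p = 5.6e-07), and lies on the + strand of chromosome 6.
Nop2, chr6:125131633-125131882: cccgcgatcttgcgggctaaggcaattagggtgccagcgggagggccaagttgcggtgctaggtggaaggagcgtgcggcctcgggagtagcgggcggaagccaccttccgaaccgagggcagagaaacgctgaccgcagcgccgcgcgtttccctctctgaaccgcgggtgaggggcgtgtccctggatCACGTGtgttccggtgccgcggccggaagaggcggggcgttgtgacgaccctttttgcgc
Of 35 promoters of 32 matched genes of the list, 10 held the E-box (28.6%, against 7.15% of all promoters and 10.2% of those of the genes tested). The share was no lower in the lysosome list, most of whose genes were lower in the 40 h libraries (8 of 25 promoters, 32%).

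Genes of DNA replication were higher as a block. All 42 tested S phase genes were higher in the 40 h libraries (median 1.52), 33 of them by at least 2-fold, and 36 were still called higher under median-of-ratios scaling. Ung, a uracil-removing DNA glycosylase, was at 22.6 and 22.1 RPKM after 40 h and 4.5 and 1.95 after 120 h (log2 change 2.54 ± 0.23 SE, adjusted p = 1.7e-05). Gins1, a subunit of the replicative helicase, was at 29.5 and 29.5 against 6.67 and 4.03 (log2 change 2.30 ± 0.17 SE, adjusted p = 5.0e-06). The summed level of the list was 2780 and 2776 RPKM in the 40 h libraries, 2694 and 2710 in the untreated and 1284 and 716.2 in the 120 h libraries, so the 120 h pair differed between themselves. Of 38 G2 and M phase genes 34 were higher and 4 were not called (median 0.84), but the count was 16 under median-of-ratios scaling (median 0.42). The median was 1.20 without 120 h replicate 1 and 0.51 without 120 h replicate 2. Ccnb1, cyclin B1, was at 69.8 and 65.2 against 33.4 and 18.4 RPKM (log2 change 1.41 ± 0.23 SE, adjusted p = 4.6e-04), with the 2 values at 120 h further apart than those at 40 h. Nusap1, a spindle protein, was not called (29.8 and 30.5 against 29.8 and 15.5 RPKM) and was called higher without 120 h replicate 1 (log2 fold change 0.91, adjusted p = 1.4e-05).

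Mcm7, a subunit of the replicative helicase, is shown for the E2F letters upstream of its start, on the - strand of chromosome 5. It was at 258 and 258 RPKM against 95.4 and 46.6 (log2 change 1.94 ± 0.27 SE, adjusted p = 2.0e-04).
Mcm7, chr5:138171884-138172133: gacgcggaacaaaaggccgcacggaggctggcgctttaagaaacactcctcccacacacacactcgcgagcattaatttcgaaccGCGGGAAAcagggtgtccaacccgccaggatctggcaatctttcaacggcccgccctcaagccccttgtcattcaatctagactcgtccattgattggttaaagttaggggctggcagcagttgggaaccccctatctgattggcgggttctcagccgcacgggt
The letters TTTCCCGC or TTTGGCGC, neither of which contains the other, were held on either strand by 10 of 35 promoters of 30 matched S phase genes (28.6%, against 1.56% of all promoters and 3.07% of those of the genes tested).

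Enzymes of cholesterol synthesis were higher in 17 of 23 tested cases, lower in 1 and not called in 5 (median 1.27). Sqle, squalene epoxidase, was at 68.5 and 63.7 RPKM after 40 h and 25.5 and 13.6 after 120 h (log2 change 1.77 ± 0.23 SE, adjusted p = 1.2e-04). Hmgcs1, which makes the precursor of mevalonate, was at 99.95 and 106 against 34.5 and 30.2 (log2 change 1.64 ± 0.09 SE, adjusted p = 1.3e-06). Sc5d, a late enzyme of the pathway, was lower (log2 change -0.35 ± 0.11 SE, adjusted p = 0.014), a call lost with the 2 groups alone and with array weights. It was also lost without 40 h replicate 2 (log2 fold change -0.29) and without 120 h replicate 1 (-0.22).

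**Figure D3:**
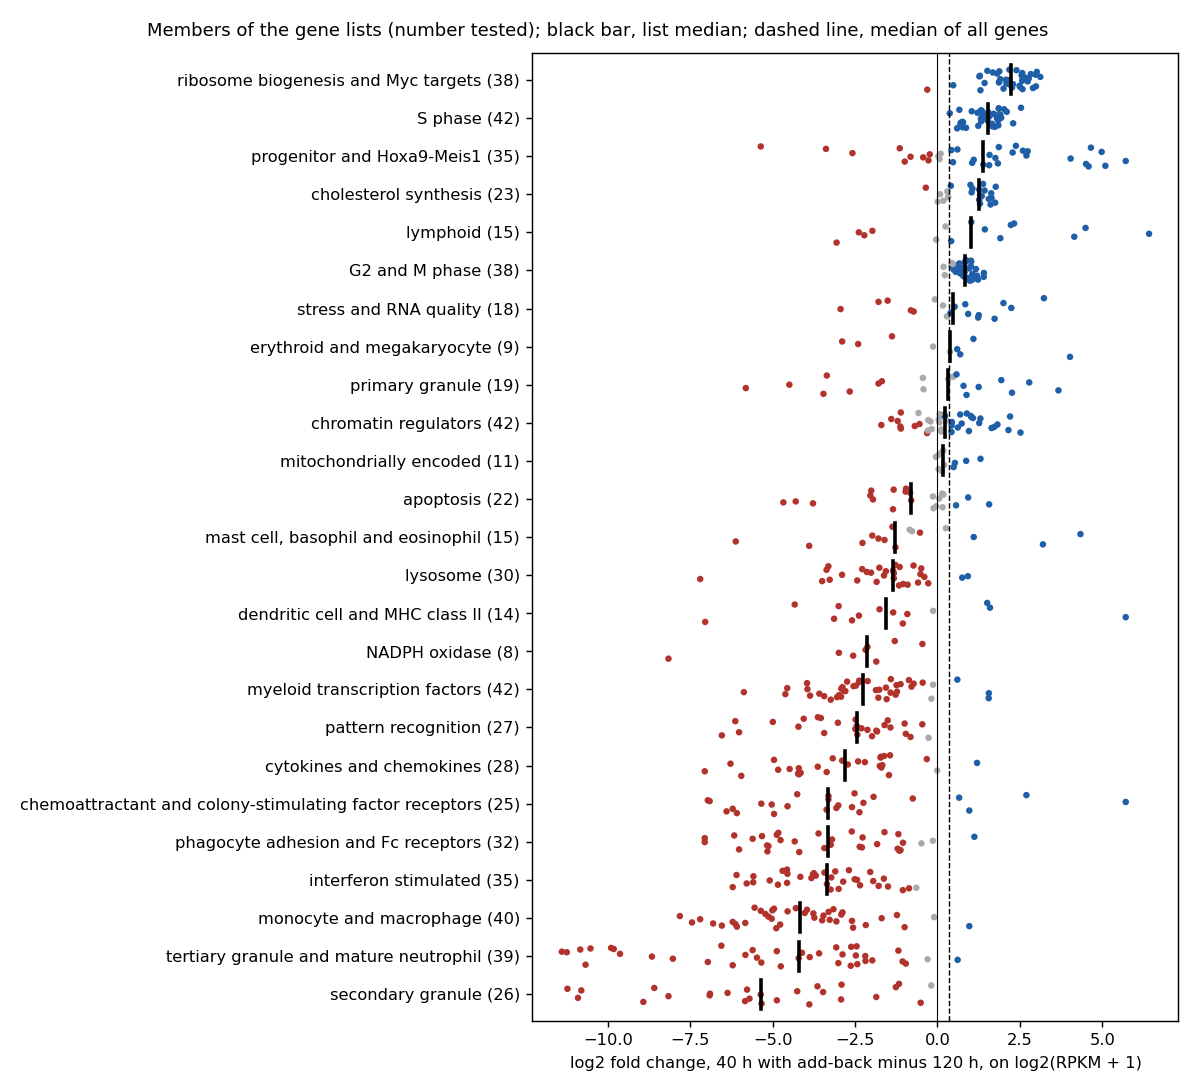
Log2 fold changes of the tested members of 25 gene lists, 1 point per gene, coloured by call (blue higher, red lower, grey not called), with a black bar at each list's median and a dashed line at the median of all genes. Secondary granule genes have the lowest median, -5.35, and ribosome biogenesis genes the highest, 2.23.

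Some genes of other blood lineages were read out as well. Among genes of mast cells, basophils and eosinophils, 15 of 24 were tested, 9 were lower in the 40 h libraries, 3 were higher and 3 were not called (median -1.27, and -0.53 with no filter on low values). Those that were higher were Mcpt8, a basophil protease, at 37.8 and 32.9 RPKM against 0.687 and 0.899 (log2 change 4.34 ± 0.15 SE, adjusted p = 9.6e-08), Cpa3, a mast cell carboxypeptidase, and the progenitor factor Gata2. Prg2, the eosinophil granule major basic protein, was not called, at 234 and 173 against 471 and 250.5 RPKM (log2 change -0.77 ± 0.45 SE, adjusted p = 0.15). It was called lower under median-of-ratios scaling (log2 fold change -1.21, adjusted p = 0.036) and without 120 h replicate 2 (-1.22). It was at 12.9 and 36.3 RPKM in the untreated libraries. The list summed to 451.1 and 379.7 RPKM after 40 h, 734.4 and 484.9 after 120 h and 234.1 and 272.3 in the untreated libraries. Prg2 alone was a large part of the 40 h sums. The 72 h libraries were highest, with 1657 and 1466 RPKM over the tested members. Fcer1a, the high-affinity IgE receptor chain of mast cells and basophils, was listed at 0 in both 40 h libraries. Of 22 erythroid and megakaryocyte genes 9 were tested, 4 higher and 3 lower, against 52.4% and 28.3% of all genes tested. The median was 0.38 (0.03 under median-of-ratios scaling, 0.22 if 40 h replicate 2 is left out and 0.21 if 120 h replicate 2 is). The red cell genes Alas2 and Slc4a1 were each under 0.1 RPKM in every one of the 4 libraries, but other untested red cell genes reached higher levels. Klf1 was at 0.457 and 0.355 RPKM after 40 h and 0.056 and 0.051 after 120 h. Epor was at 0.37 and 0.45 against 0.079 and 0.094, and Hbb-bs at 0.11 and 0.091 against 0.688 and 0.07. The tested members had log2 fold changes from -2.89 to 4.02. Summed over the listed genes in the files, the level was 173.4 and 165.8 RPKM after 40 h and 137.2 and 121.5 after 120 h. Of 14 tested dendritic cell and MHC class II genes 10 were lower and 3 higher (median -1.55, and -0.22 with no filter on low values). Cd74, the invariant chain of MHC class II, was at 1.17 and 1.36 against 234 and 381 RPKM (log2 change -7.05 ± 0.36 SE, adjusted p = 7.4e-07). The part of these other lineages in the results above was not tested.

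A small set of genes stood above the untreated level after 40 h with add-back although they were below the 120 h level. By the rule, both 40 h libraries were above both untreated ones with a mean at least 2 times as high and at least 5 RPKM. The gene was also called lower than at 120 h. Of the 13004 genes tested 25 met it, of which 24 have a named symbol. These values were chosen by the rule and carry no test of their own. Ly6c2, a surface antigen of monocytes and granulocytes, was at 0.571 and 0.683 RPKM in the untreated libraries, 37.6 and 25.8 after 40 h and 638 and 430 after 120 h. Reads may be shared with the near-identical Ly6c1. Ms4a3, a membrane protein of granulocyte and monocyte progenitors, was at 4.55 and 4.49 RPKM untreated, 76.7 and 41.9 after 40 h and 279 and 122 after 120 h. Mmp8, the neutrophil collagenase, was at 1.18 and 1.48 RPKM untreated, 13.8 and 11.1 after 40 h and 588 and 919.9 after 120 h. Adgre1, the macrophage antigen F4/80, was at 1.16 and 1.59 RPKM untreated, 6.26 and 5.74 after 40 h and 199 and 215 after 120 h. Tlr4, the lipopolysaccharide receptor, was at 1.09 and 1.09 RPKM untreated, 6.58 and 5.79 after 40 h and 20.3 and 18.6 after 120 h. Gda, a guanine deaminase, was at 2.51 and 3.66 RPKM untreated, 28.3 and 22.5 after 40 h and 227 and 248 after 120 h. The place of the 40 h libraries between the other groups follows from the rule. Not all of these genes were highest at 120 h: Ms4a3 was at 575 and 474 RPKM in the 72 h libraries, Far2 at 51.9 and 50.4 and Tfec at 85.3 and 81.9. Tlr4 was at 24 and 24.6 RPKM at 72 h, Gca at 29.1 and 36.9 and Olr1 at 45.3 and 49.5, each above its 120 h pair. Ly6c2, at 568 and 608 RPKM in the 72 h libraries, lay inside the spread of its 120 h pair. The difference from 120 h was smallest for Far2 and Tfec, with log2 fold changes of -0.84 and -0.87. The call of Far2, a fatty acyl-CoA reductase, was lost with a pseudocount of 0.1, with no filter, with the 2 groups alone and with array weights. It was also lost without 40 h replicate 2 (log2 fold change -0.62) and without 120 h replicate 1 (-0.39).

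The mirror set held 36 of the 13004 genes tested, 33 of them with a named symbol. Their untreated mean was at least 5 RPKM, and their 40 h mean was at most 0.5 times that mean. Both 40 h libraries were below both untreated ones, yet the gene was called higher than at 120 h. Thy1, a surface glycoprotein of lymphoid and stem cells, was at 24.99 and 26.7 RPKM in the untreated libraries, 4.55 and 6.87 after 40 h and 0.634 and 0.062 after 120 h. Dntt, terminal transferase of early lymphoid cells, was at 11.5 and 7.91 RPKM untreated, 2.68 and 2.85 after 40 h and 0 and 0.005 after 120 h. Myl4, a myosin light chain, was at 28.3 and 22.9 RPKM untreated, 7.41 and 8.17 after 40 h and 0.055 and 0.047 after 120 h. Fgf3, a fibroblast growth factor, was at 11.96 and 13.3 RPKM untreated, 2.58 and 2.98 after 40 h and 0.01 and 0.032 after 120 h. Gfra1, a receptor for glial-derived neurotrophic factor, was at 10.8 and 10.8 RPKM untreated, 3.1 and 4.34 after 40 h and 0.144 and 0.137 after 120 h. The place of the 40 h libraries in the middle follows from the rule. Crip1, a small LIM protein, was nearest to the 120 h level, at 95.8 and 96.5 RPKM untreated, 33.2 and 32.5 after 40 h and 29 and 22.7 after 120 h. Its difference from 120 h (log2 fold change 0.35) became -0.08 under median-of-ratios scaling. The call of Crip1 was also lost with the 2 groups alone and under quantile normalization. It was lost without either 40 h library too (log2 fold change 0.33 without replicate 1 and 0.36 without replicate 2).

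**Figure D4:**
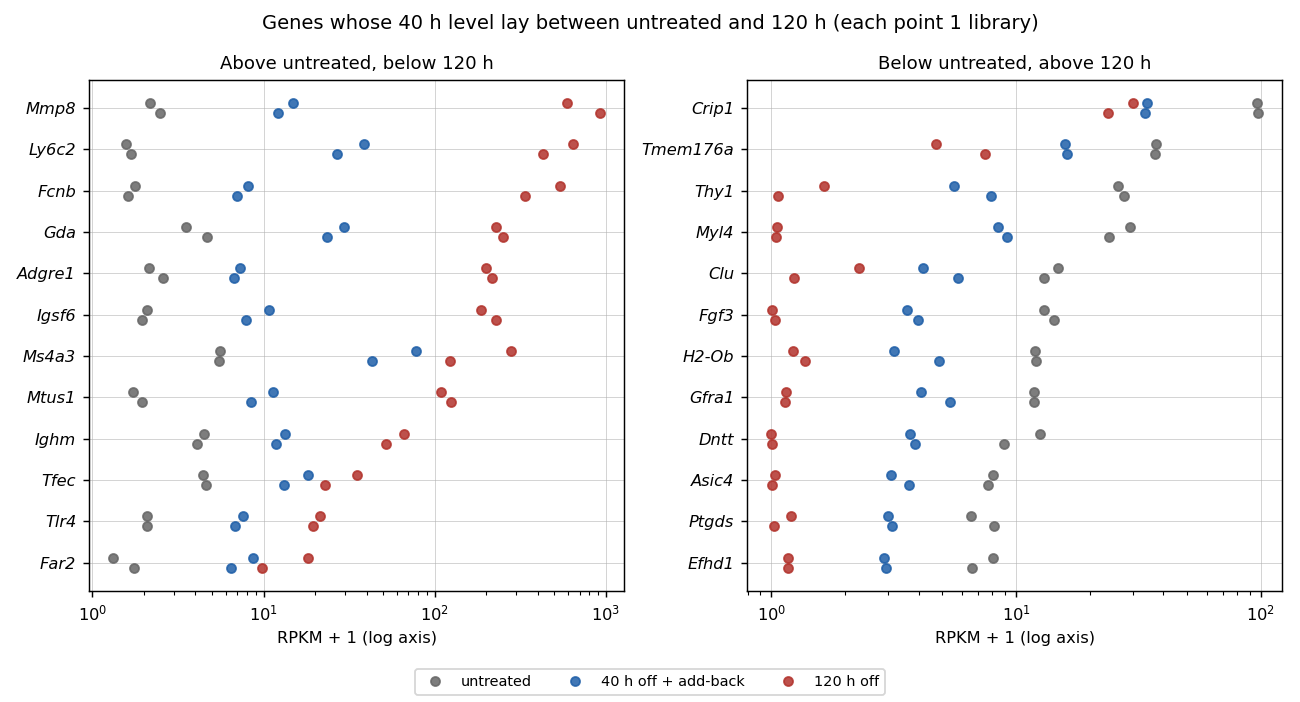
RPKM + 1 on log axes, 1 point per library, for 12 genes whose 40 h level lay above untreated and below 120 h (left) and 12 with the reverse order (right). Ly6c2 is at 37.6 and 25.8 RPKM after 40 h, between 0.571 and 0.683 in the untreated and 638 and 430 in the 120 h libraries, and Crip1 is the gene on the right whose 40 h points come closest to the 120 h points.

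Genes at an extreme in the 40 h libraries were counted last. Both 40 h libraries were above all other 8 libraries in 227 of the 13004 genes tested, and below all other 8 in 268. Each of these genes was also called against 120 h and had a mean of at least 5 RPKM in its highest group. Whether these counts exceed what chance would give was not tested. The 8 named on each side are those with the largest difference from 120 h, and their place outside the other libraries was fixed by the rule. Bzw2, a regulator of translation initiation, was at 139 and 132 RPKM in the 40 h libraries, 124 and 125 in the untreated and 14.2 and 6.32 in the 120 h libraries. Slc7a5, a transporter of large amino acids, was at 73.3 and 85.9 RPKM after 40 h, 61.4 and 58.1 untreated and 11.5 and 5.57 after 120 h. Ppan, a nucleolar factor of large subunit assembly, was at 61.7 and 62.1 RPKM after 40 h, 57.1 and 59.6 untreated and 8.05 and 6.01 after 120 h. The margin over the untreated libraries was small for Bzw2 and Ppan, with ratios of the 40 h mean to the untreated mean of 1.09 and 1.06. It was larger for Slc7a5 (1.33), whose 72 h libraries came closer at 71.3 and 65.1 RPKM. Dctd, a deaminase of thymidylate supply, Slc19a1, a folate carrier, Pold2, a DNA polymerase delta subunit, Prmt5, an arginine methyltransferase, and Rcl1, a ribosomal RNA processing factor, had log2 fold changes against 120 h of 3.17, 3.08, 2.90, 2.84 and 2.83.

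The named genes below all other libraries were at most at the 2.25 RPKM of Id2 in the 40 h libraries. Lilrb4a, an inhibitory immunoglobulin-like receptor, was at 0.112 and 0.103 RPKM after 40 h, 0.142 and 0.115 in the untreated libraries and 121 and 178 after 120 h. Adam8, a membrane metalloprotease, was at 0.736 and 1.02 RPKM after 40 h, 1.59 and 1.64 untreated and 115 and 171 after 120 h. Ifi204, an interferon-inducible DNA sensor, was at 0.301 and 0.413 RPKM after 40 h, 1.47 and 1.02 untreated and 53.8 and 84.6 after 120 h. Cd177, a neutrophil surface protein, was at 0.076 and 0.098 RPKM after 40 h, 0.139 and 0.155 untreated and 57.3 and 65.4 after 120 h. Against the untreated libraries the gap was under 0.1 RPKM for Lilrb4a and Cd177, while Irf7 and Id2, described above, and Adam8 and Ifi204 differed by more. Oas3 and Lilr4b completed the 8 genes named by the rule.

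**Figure D5:**
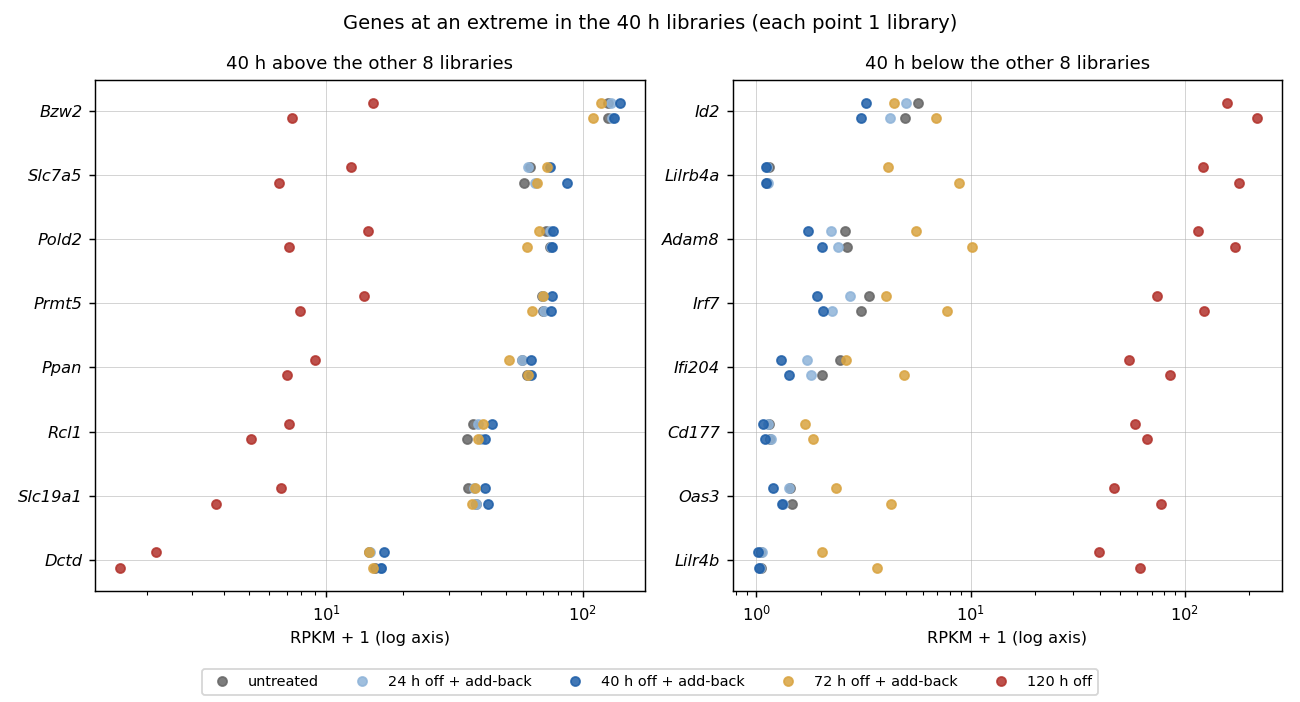
RPKM + 1 on log axes, 1 point per library in all 5 groups, for 8 genes with both 40 h libraries above the other 8 (left) and 8 with both below (right). On the left the 40 h points are close to the untreated, 24 h and 72 h points, and on the right the 120 h points lie far from all others.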

How the data were processed

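RNA of 10 libraries in 5 groups of 2 was sequenced from TruSeq libraries, per the labels' protocols. The authors deposited RPKM per Ensembl transcript, 79535 transcripts per library, per the file headers. The submitters' processing notes name STAR and the GRCm38 build. For the STAR version, counting program, annotation release, use of strand and filter the entry is "not given in the sources used here", so overlapping, antisense and near-identical genes are uncertain. Transcript identifiers were matched to GENCODE M21 (77720, or 97.7%, matched), and each gene was represented by 1 transcript (coding, then APPRIS principal, CCDS, longest), giving 26227 genes. Values times transcript length came out as whole reads, within 0.04 reads, for 97.9 to 98.5% of the 932 to 1185 low values tested per library, which gave the read denominators.

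Values were taken as log2(RPKM + 1), with the pseudocount of 1, for the 13004 genes that reached 1 RPKM in 2 or more libraries. R 4.3.3 and limma 3.58.1 were used to fit them (lmFit, then contrasts.fit and eBayes with trend) over all 10 libraries with group as the only term (5 residual and 3.04 prior degrees of freedom). Tests were two-sided with Benjamini-Hochberg adjustment over all genes tested. The precision is set by 2 libraries per group and not by depth. The scripts were tested on simulated data.

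The members, the 25 gene lists and the rule for named genes were chosen with earlier results of these data known. The rule took Hoxa9, Meis1, Esr1, Lyz2 and Kit, the 10 highest and 10 lowest fold changes among called genes with a mean of at least 5 RPKM, and up to 4 called members per direction and 2 uncalled members per list. It also took up to 12 genes between the untreated and 120 h levels in each order, up to 8 at each extreme in the 40 h libraries, and up to 6 abundant uncalled genes. Of 225 genes it named, most of those not printed are left out for length, and some genes are not reported here. Cxcr2, Elane, Cebpe, Spi1, Cd34, Myc, Nop2 and Mcm7 were added after their values were seen. Promoters were taken from RefSeq on GRCm38.p6, where 8853 of the 13004 tested genes had 1 or more. In 18454 of 25174 promoters with a transcript of that name, a transcript's start was found on the given strand. Alternatives covered the pseudocount, filter, scaling, samples, weights, trend, replicate block, transcript choice and a fit on reads.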

Additional observations from a re-analysis of the deposited data

How the results depend on the processing

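The count of genes higher in the 40 h libraries (6812) and the count of genes lower (3684) stayed within 1.5 times of these values in all 16 alternatives. Leaving out 1 of the 4 libraries gave 6269 to 6858 genes higher and 3286 to 4024 lower. A pseudocount of 0.1 gave 6842 and 3669, the 2 groups alone 6159 and 3238, array weights 5926 and 3202, quantile normalization 6047 and 4281, limma's voom on the recovered reads 6797 and 3684, and leaving out the 72 h group, an alternative chosen after seeing the data, 6801 and 3667. Median-of-ratios scaling gave 5020 and 5188, kept 8704 of the 10496 calls in their direction and turned 46.

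With a replicate block the counts were 6973 and 3840. The replicate numbers are not taken as pairs, since the deviations of same-numbered libraries had correlations from 0.034 to 0.639 over pairs of groups (0.414 for 40 h and 120 h), not all above 0.1. All of these correlations were positive, so same-numbered libraries tended to deviate the same way. That is a hint from the data and not from the design.

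Of 224 named genes 47 changed their call or direction in at least 1 alternative. The log2 fold change turned negative under median-of-ratios scaling in Bak1 (-0.273), Crip1 (-0.0780), Lbr (-0.399) and Lyl1 (-0.334), and under quantile normalization in Cfl1 (-0.376), Gpi1 (-0.603), Pkm (-0.348), Tpt1 (-0.334), mt-Cytb (-0.412) and mt-Nd1 (-0.0946). Without 120 h replicate 2 the change of Malat1 was -0.58 in place of -1.79 and that of Neat1 -0.57 in place of -1.51, and neither was called. The cause of these changes was not tested.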

Other observations

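Regulators of chromatin were mixed, as all genes tested were (52.4% higher and 28.3% lower). Of 42 tested 21 were higher in the 40 h libraries than in the 120 h libraries, 9 were lower and 12 were not called (median 0.23, and -0.14 with 15 higher and 17 lower under median-of-ratios scaling). Without 120 h replicate 1 the lower count was 14. Cbx2, a Polycomb subunit that reads histone methylation, was at 8.32 and 9.59 RPKM after 40 h and 0.826 and 0.643 after 120 h (log2 change 2.52 ± 0.10 SE, adjusted p = 2.0e-07), and Dnmt3b, a de novo DNA methyltransferase, was at 5.86 and 6.2 against 0.703 and 0.462 (log2 change 2.15 ± 0.09 SE, adjusted p = 3.3e-07). Lmna, which encodes the nuclear lamins A and C, was lower at 0.088 and 0.138 against 2.17 and 1.73 RPKM (log2 change -1.40 ± 0.11 SE, adjusted p = 5.6e-06), and so was Kdm6b, a histone H3 lysine demethylase, at 6.92 and 8.71 against 16.1 and 22.97 (log2 change -1.21 ± 0.18 SE, adjusted p = 3.1e-04). Eed, a core subunit of the Polycomb complex that methylates histone H3, was not called, at 19.3 and 19.6 against 17.3 and 28.02 RPKM, and was called lower without 120 h replicate 1 (log2 fold change -0.51 in place of -0.17, adjusted p = 3.3e-04) and under median-of-ratios scaling (-0.60).

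Apoptosis genes were lower in 12 of 22 tested cases and higher in 3 (median -0.81, and -1.22 under median-of-ratios scaling). Bcl2, the survival factor, was higher at 4.27 and 4.78 RPKM after 40 h against 0.918 and 0.804 (log2 change 1.57 ± 0.12 SE, adjusted p = 5.6e-06). Its relatives Bcl2a1a, Bcl2a1b and Bcl2a1d were lower by -3.78, -4.68 and -4.30 on the log2 scale, and these near-identical genes may share reads. Bax, a pore-forming effector of cell death, was not called, at 43.5 and 37.6 against 42.1 and 41.1 RPKM, and was called lower under median-of-ratios scaling.

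Genes of stress and RNA quality were divided, in shares near those of all genes tested (52.4% higher and 28.3% lower). Of 18 tested 10 were higher, 5 were lower and 3 were not called. The median was 0.46, against 0.34 for all genes tested, and 0.19 under median-of-ratios scaling. The lower count was 3 with no filter and with the 2 groups alone. With 1 of the 4 libraries left out, the median lay between 0.36 and 0.57. Trib3, a pseudokinase induced by amino acid shortage, was higher at 27.03 and 37.3 RPKM after 40 h against 2.53 and 2.45 (log2 change 3.23 ± 0.15 SE, adjusted p = 4.1e-07), and so were the chaperone Hsp90aa1, at 338 and 319 against 91.4 and 51.5 (log2 change 2.24 ± 0.22 SE, adjusted p = 2.8e-05), and Asns, asparagine synthetase (log2 change 1.73 ± 0.23 SE, adjusted p = 1.7e-04). Hmox1, the heme-degrading enzyme, was lower at 3.34 and 3.16 against 29.7 and 33.7 RPKM (log2 change -2.94 ± 0.13 SE, adjusted p = 3.2e-07). Of 11 tested genes of the mitochondrial genome 4 were higher, none was lower and 7 were not called, with a median of 0.18 that was -0.23 under median-of-ratios scaling and -0.09 under quantile normalization, where 4 were called lower, and 0.01 without 120 h replicate 2. The most abundant genes without a call outside the mitochondrial genome included Tpt1, at 1302 and 1198 RPKM after 40 h and 1205 and 900 after 120 h, the actin-severing Cfl1, at 1385 and 1260 against 1370 and 1057, and the glycolytic enzyme Gpi1, at 912 and 851 against 996 and 746. Under quantile normalization each of the 3 was called lower in the 40 h libraries, while without 120 h replicate 1 Tpt1 (log2 fold change 0.47, adjusted p = 0.0078) and Cfl1 (0.32, adjusted p = 0.046) were called higher.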
